A study of Mus musculus with 12 samples.

Results

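The reads described here are those by which a TruSeq-spiked RNA sequencing sample exceeded its NuGENv2-spiked counterpart on the 100 ng background, with 20M source reads (M, 1e6) in each. They were taken as the difference between the deposited tables in each exon bin, a non-overlapping stretch of a gene model's exons, for replicate columns 1 to 4. Of 925 bins with finite values in 58 gene models, 916 (99%) gained reads, 8 did not change and 1 lost reads. The gain summed to 864540 reads. It was the same in all 4 replicate columns, the largest difference between columns being 4.2e-10 reads, so it is 1 set of added reads and has no replicate spread. These counts follow from how the reads were chosen and are given as a description.

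RNA came from D1, which the labels name only as a mouse cell line. Both samples hold reads of a TruSeq library, a poly(A)-selected and unstranded RNA sequencing library, made from 100 ng of total RNA, as a common background. On a computer, reads of listed transcripts were mixed in, extracted from 20M reads of a NuGENv2 library made with 2 ng of RNA in one sample and of a TruSeq library made with 100 ng in the other. Both samples also carry synthetic reads laid evenly along other listed transcripts, and each has 5 replicate columns. Background values below are those of the whole NuGENv2-spiked sample, so they include its synthetic reads and its kit reads unless stated. The labels describe reads of listed transcripts only, and say nothing of the origin of a gain over nearly all bins. By the lists for the 2 background amounts, 16 gene models had kit reads in the 100 ng list, 22 had synthetic reads in it, 5 had kit reads and 11 synthetic reads in the 1000 ng list only, and 4 were in no list.

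A spliced messenger RNA leaves exons covered by reads and introns nearly bare, and an exon that a cell skips stands low between covered neighbours. A library of endogenous RNA therefore shows the levels of genes and the exon choices of the cells it came from. Reads generated evenly along a chosen transcript show only the exons of that transcript. Dendritic cells, which sample antigens and present them to T cells, carry lectins such as Mgl2 and inhibitory receptors such as Sirpa on their surface.

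The exons on which the results turn are shown with their flanks, because each marks a place where the added reads and the background differ in pattern, or where a coding exon was nearly bare. Sequences are from the NCBIM37 (mm9) mouse genome, plus strand, 5′ to 3′, with the exon in capitals and 10 intronic bases on each side in lower case. All 6 exons are coding in the GENCODE vM1 annotation and lie between AG and GT splice site bases. Tmem62 E009 (chr2:120816067-120816222) and E010 (chr2:120819214-120819373) were covered by added reads like their neighbours but lacked the excess seen in the background.
Tmem62 E009: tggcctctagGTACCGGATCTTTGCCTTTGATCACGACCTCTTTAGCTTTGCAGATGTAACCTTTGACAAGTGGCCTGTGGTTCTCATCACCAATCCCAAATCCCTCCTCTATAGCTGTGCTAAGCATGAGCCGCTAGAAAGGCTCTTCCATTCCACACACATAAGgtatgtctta
Tmem62 E010: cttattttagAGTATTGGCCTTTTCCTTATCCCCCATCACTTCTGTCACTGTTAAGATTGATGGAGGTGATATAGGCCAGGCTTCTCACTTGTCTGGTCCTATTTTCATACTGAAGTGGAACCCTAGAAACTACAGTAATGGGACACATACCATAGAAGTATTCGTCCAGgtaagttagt
Atg16l1 E011 (chr1:89671388-89671444, 57 bases) and E012 (chr1:89671656-89671703, 48 bases) are consecutive exons whose lengths are multiples of 3, and the added reads covered them very unequally.
Atg16l1 E011: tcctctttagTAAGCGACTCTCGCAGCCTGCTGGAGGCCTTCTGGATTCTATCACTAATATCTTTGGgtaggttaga
Atg16l1 E012: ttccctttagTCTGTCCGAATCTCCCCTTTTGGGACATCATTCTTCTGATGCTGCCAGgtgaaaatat
Sin3b E006 (chr8:75263268-75263387) and E010 (chr8:75265373-75265462) stand on either side of the place where the added coverage of Sin3b dropped.
Sin3b E006: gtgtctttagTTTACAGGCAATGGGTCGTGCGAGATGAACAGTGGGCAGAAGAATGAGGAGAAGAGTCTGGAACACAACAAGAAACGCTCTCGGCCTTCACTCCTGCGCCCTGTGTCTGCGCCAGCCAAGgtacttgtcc
Sin3b E010: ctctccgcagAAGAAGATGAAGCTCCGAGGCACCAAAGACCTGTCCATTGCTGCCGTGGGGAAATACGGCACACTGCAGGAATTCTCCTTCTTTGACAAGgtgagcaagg

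The background held 237258, 291560, 417019 and 402717 reads in these bins in replicate columns 1 to 4, synthetic and kit reads included. These totals were below that of the added set in every column. Column 5, deposited on another scale, implied a library total of 184.9M reads for the added set, and after rescaling its gain differed from the other columns by under 0.01 reads in 925 of 925 bins. That total is inferred and not stated in the sources used here. Kit reads of listed transcripts, estimated from the samples of higher depth, came to 1.61% of the added reads net. In the other 5 pairs of samples the TruSeq table was higher in 6.05% to 13.9% of bins, so a gain over nearly all bins was seen in this pair alone among the 6. The 95% Poisson intervals given below cover counting error only, and they are too narrow, because mates, duplicates and reads that span several bins are not independent. Without strand, reads of an overlapping antisense gene cannot be told apart from those of the model.

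Levels of the gene models spanned a wide range in the added set (plot of levels by gene model). They are given as added reads per kilobase of exon and per 1e6 reads of the inferred total, called FPKM equivalents. Of 58 models, 20 were above 10, 27 between 2 and 10, and 11 under 2. The 3 highest, Mgl2, Aes and Fxyd5, held 37.2% of the added reads. These 58 models were picked by the study and are not a sample of the transcriptome.

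**Figure D1:**
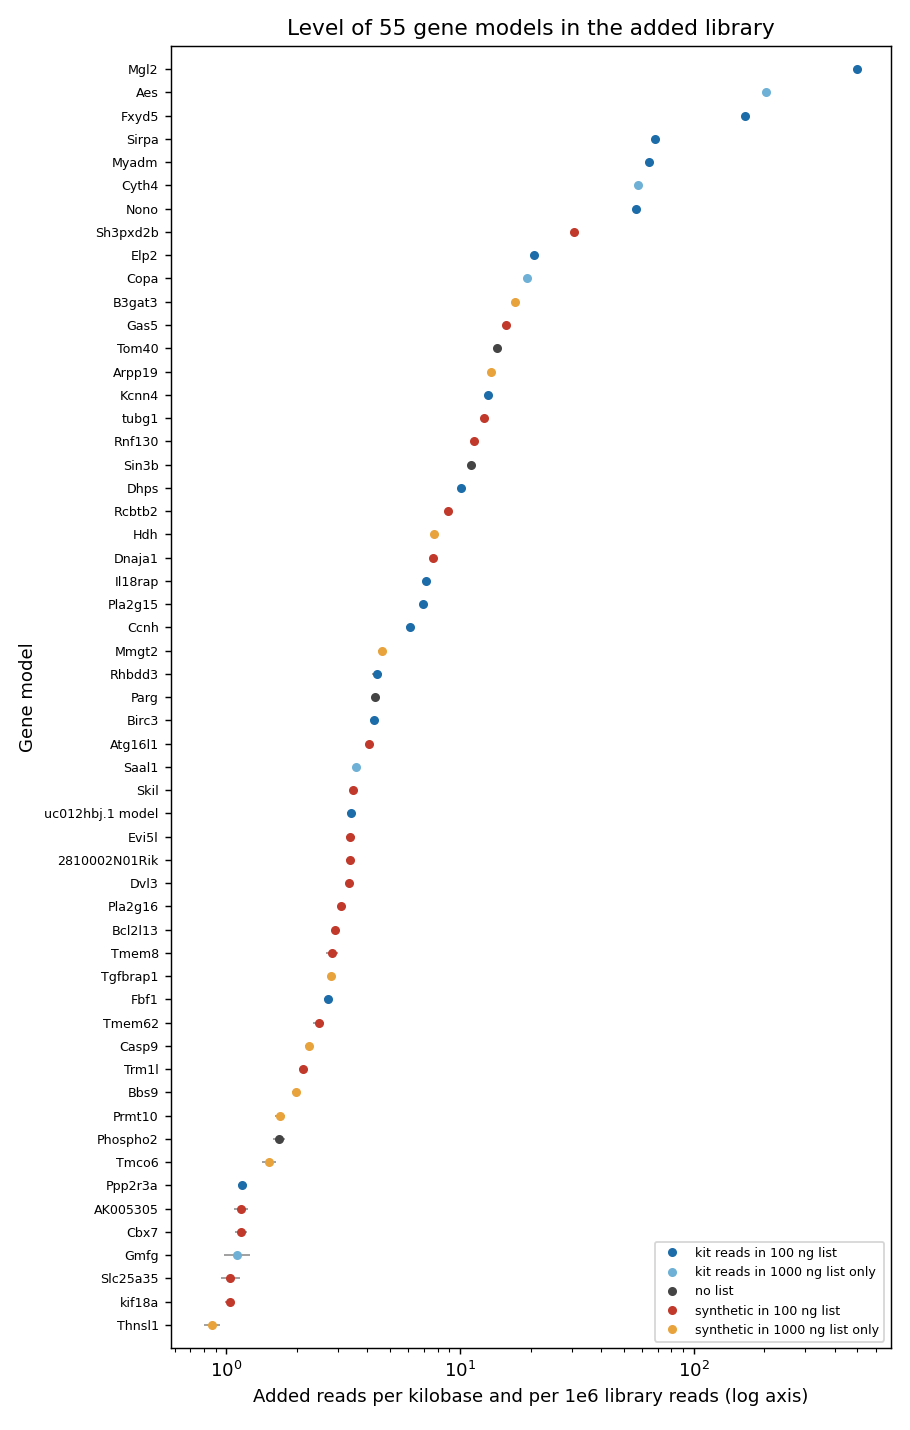
Level of each of 55 gene models in the added reads (3 are not shown), in added reads per kilobase and per 1e6 library reads on a log axis, with 95% Poisson intervals as grey lines and colours for the lists of the study. Mgl2 stands highest at 500.5 and Thnsl1 lowest at 0.867.

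Several, but not all, of the listed genes of the immune cell surface and its signalling lay at the top of the range. Mgl2, a C-type lectin of macrophages and dendritic cells that binds galactose-type sugars, was at 500.5 (498 to 503 by counting error). Fxyd5, a small membrane protein that modulates the sodium pump and cell adhesion, was at 165, and Sirpa, the inhibitory receptor for CD47, at 68.0. With the net estimated kit reads taken off, Mgl2 was at 473.6 and Sirpa at 63.8, outside their counting intervals, and Fxyd5 was still at 165. Myadm, a membrane protein of myeloid cells, was at 64.2, and Cyth4, an exchange factor for ARF GTPases in blood cells, at 57.4. Il18rap, the accessory chain of the IL-18 receptor, was lower at 7.12, and Gmfg, a regulator of branched actin in blood cells, was near the bottom at 1.11. The median of these 7 models was 64.2, against 4.38 over all 58. The list was written with earlier results of these data known, so its median is a description only. All 7 have kit reads in a list of the study. Medians were 8.62 over all models with kit reads in the 100 ng list and 19.3 over those of the 1000 ng list only. Only 2 of the 9 dendritic cell markers listed for the check, Sirpa and Mgl2, have a gene model in the tables, and none of 5 markers of other cells has one. The identity of the cells could therefore not be checked against its defining genes, Itgax and the class II genes among them.

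Other highly covered models were of general cell function. Aes, a corepressor of the Groucho family in Wnt signalling, was at 203. Nono, an RNA-binding protein of paraspeckles, was at 56.5, Sh3pxd2b, a scaffold of podosomes, at 30.8, Elp2, a subunit of the tRNA-modifying Elongator complex, at 20.8, and Copa, a coat protein of Golgi vesicles, at 19.3. B3gat3, which builds the linker of glycosaminoglycans, was at 17.2 and the noncoding snoRNA host Gas5 at 15.8. The 6 lowest models lay between 0.867 and 1.16. They were Thnsl1, the mitotic kinesin kif18a at 1.03, the mitochondrial carrier Slc25a35 at 1.04, Gmfg, the Polycomb protein Cbx7 at 1.15, and AK005305. By counting error the intervals of Cyth4 (57.0 to 57.8) and Nono (55.9 to 57.1) overlapped near the top. With the net estimated kit reads taken off, Cyth4 was at 56.8 and Nono at 55.6, each below its interval. Among the lowest, the intervals of Gmfg (0.979 to 1.26), Cbx7 (1.09 to 1.22) and AK005305 (1.08 to 1.24) overlapped.

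The smaller function groups lay on both sides of the median over all models. The 4 genes of NF-kB ubiquitin control and apoptosis were at 2.25 to 4.42, from Casp9, the initiator caspase of the mitochondrial pathway, to Rhbdd3. Birc3, a ubiquitin ligase of NF-kB signalling, was at 4.27. The phospholipases Pla2g15 and Pla2g16 were at 6.94 and 3.10. The 3 cilium genes were at 1.98 (Bbs9, of the BBSome), 2.71 (Fbf1, of the transition fibres) and 3.39 (Evi5l, a Rab GTPase-activating protein). Of the PP2A regulators, Arpp19, an inhibitor, was at 13.6 and Ppp2r3a, a regulatory subunit, at 1.17. With the net estimated kit reads taken off, Pla2g15 was at 6.51 and Fbf1 at 2.58, below their counting intervals (6.72 to 7.17 and 2.61 to 2.81).

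Within gene models, bins annotated as retained introns were covered far less than coding bins (plot of coverage by annotation class). The tables hold exon bins only, so introns outside these bins were not seen. For 39 models with at least 3 coding bins of over 100 bases, each bin was set against the median coding bin of its model. Coding bins had an interquartile range of 83.2% to 117%, and bins that hold both coding and noncoding sequence had a median of 50.9% (51 bins). Bins of untranslated regions had a median of 24.2% (21 bins). The 38 bins annotated as retained introns, stretches that some annotated transcripts keep between exons, had a median of 2.12%, and 33 of them were under 10%. The highest retained intron was Dvl3 E007, in the model of a Dishevelled protein of Wnt signalling, at 19.5% (43 reads).

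**Figure D2:**
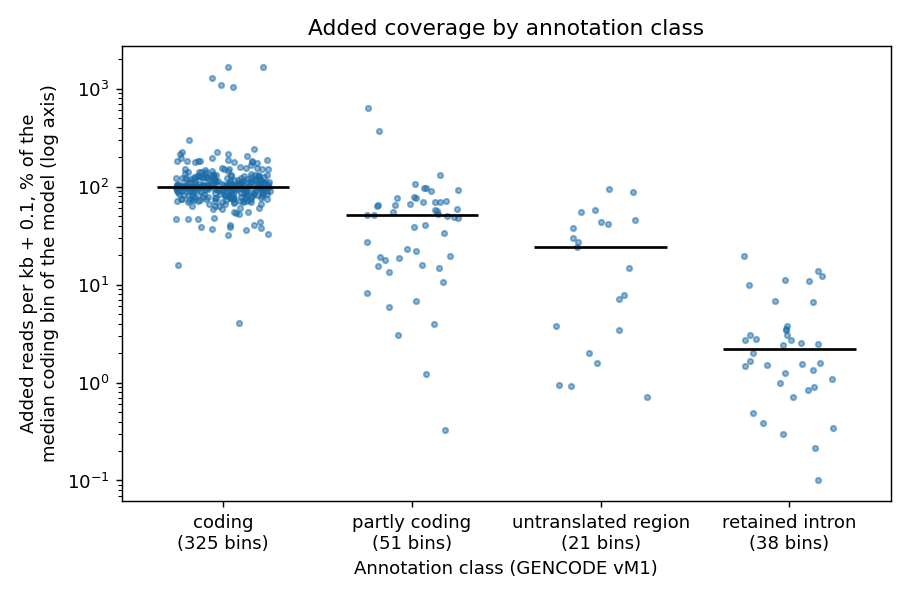
Added reads per kilobase of each bin of over 100 bases, as a percent of the median coding bin of its gene model (0.1 added, log axis), by annotation class, with a line at each class median. Points are bins of 39 gene models, coding bins centre on 100% and retained introns on 2.12%, and the 5 coding bins highest in the plot are those of the Sin3b 5′ exons.

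These values also differed with bin length. Coding bins of 20 to 50 bases had a median of 190% of the model's reference and those of over 200 and up to 500 bases one of 93.5%. Where bins of different length are set side by side below, this difference stands beside their levels, most of all for bins of a few bases.

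Gas5, whose exons are short and whose introns encode small nucleolar RNAs, showed the same order. Its 11 bins under 60 bases had a median of 64.5 FPKM equivalents (29.4 to 88.3), and its 8 bins of over 100 bases, which lie between them, had a median of 8.96 (2.58 to 12.6). The ranges did not overlap. The part of bin length in this gap was not tested.

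A few coding exons stood low between covered neighbours. In Atg16l1, which takes part in attaching LC3 to the autophagy membrane, E012 had 3 added reads, while E011 had 80 and E010 and E013 had 263 and 282. These counts are not divided by bin length. The background also fell at E012, and Atg16l1 was not among the models called below for bin use. In Dnaja1, a cochaperone of Hsp70, E010 had 29 added reads (3.92% of the model's median coding bin) and E009 had 53 (15.6%), whereas E008 before them had 745 and E012 after them 809. Dnaja1 E010 was the only coding bin of over 100 bases under 10% among 325. In the background the same Dnaja1 bins were also below E008: E010 was at 155, 155, 78.5 and 76.6 scaled reads per kilobase in columns 1 to 4 and E008 at 690, 675, 690 and 645. Near-identical copies of a gene can take up reads elsewhere, and the treatment of reads with several matches is not stated in the labels. Dnaja1 was not checked for copies.

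Sin3b, a corepressor scaffold in no list of the study, was covered mainly at its 5′ end. The 5 coding bins E002 to E006 averaged 1852 scaled reads per kilobase in the added reads and the 12 coding bins from E010 on averaged 129, a ratio of 14.4. Across the drop, E006 had 1862 reads and E010 had 92. In the 100 ng background the ratio was 1.72, 1.79, 2.42 and 2.59 in columns 1 to 4, and in the 1000 ng background it lay between 1.93 and 5.76 in 5 columns. All 9 background columns were thus below the ratio of the added reads. After scaling, the ratio of mean background to added reads was 1.92 at E006 and 15.1 at E010, and its size, unlike the change between these bins, depends on the scaling.

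To compare levels with the background, columns were scaled by the median of ratios over bins of models without synthetic reads in the 100 ng list, and scaled reads per kilobase are used from here on. The added set is 1 library, assumed in the tests to vary like the 4 background columns. Those columns include synthetic reads and kit reads, so a gap is not one between libraries alone. The part of the synthetic reads in the gaps was not tested. Nothing in the sources used here says that the columns come from separate cultures, so p-values measure the spread between columns, which may be technical. Models without synthetic reads in the list define the scale, so values near equality are partly built in for them.

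Of 58 gene models, 9 (15.5%) were lower in the added reads than in the background by limma at an adjusted p under 0.05, and 0 were higher, with 19 at an unadjusted p under 0.05 in either direction and 10 called by limma's voom. All 9 have synthetic reads in a list, 7 of the 22 models with them in the 100 ng list and 2 of the 11 with them in the 1000 ng list only. Without replicate 4 no model was called, and without replicate 2 or 3 the count was 4. Scaling over the 4 models in no list called 33 higher and 7 lower, and scaling by total reads 30 higher and 14 lower, with the median of all models moved by 2.26 and 1.34 on the log2 scale.

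**Figure D3:**
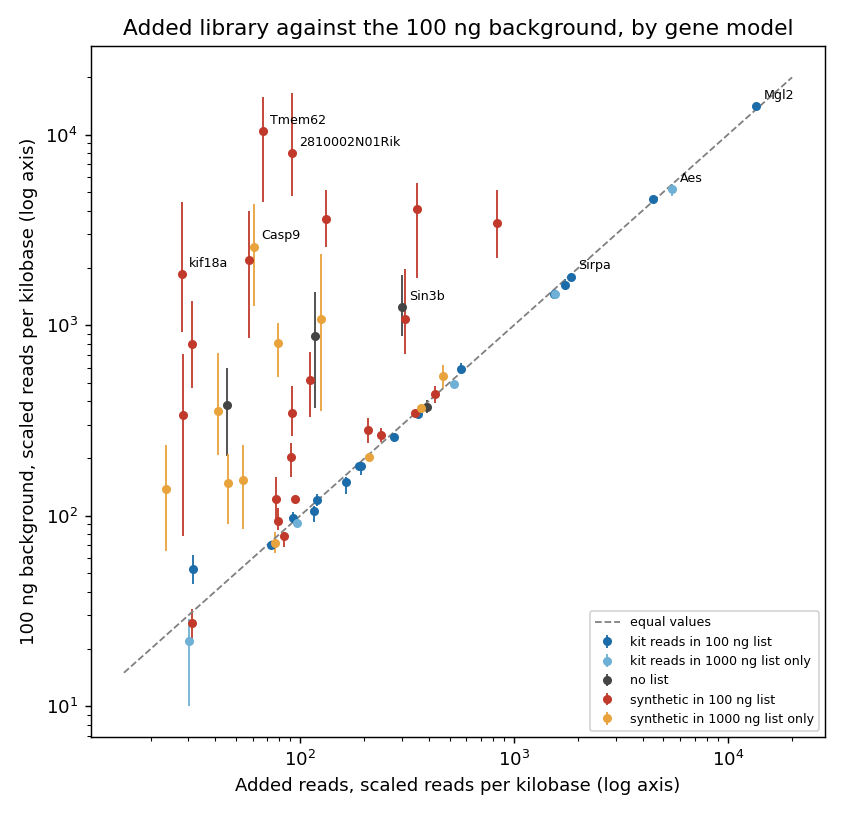
Scaled reads per kilobase of each gene model in the added reads (x axis) and in the 100 ng background (y axis, mean with the range of 4 columns), both log axes, coloured by list of the study. Models with kit reads lie close to the line of equal values apart from Ppp2r3a and Gmfg, and many models with synthetic reads lie above it, Tmem62 the farthest.

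The largest gap was in Tmem62, a transmembrane protein. Its background was at 15798.5, 14757, 4418 and 6873 scaled reads per kilobase in columns 1 to 4, and the added reads were at 67.2, far below all of them. The log2 difference was -6.89 (SE 0.86, limma adjusted p = 0.025). In 2810002N01Rik the background was at 5214, 16531, 5670 and 4753 against 91.8 (log2 difference -6.09, SE 0.82, adjusted p = 0.025 by limma).

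Of the 9 called models, 7 are named here. The mitotic kinesin kif18a was at 916, 4449, 1066 and 985 in the background and at 27.9 in the added reads. Casp9 was at 1255, 4352, 1612 and 3117 against 61.0, and Trm1l, a relative of a tRNA methyltransferase, at 1611, 3966, 858 and 2360 against 57.4. In each of these models the background columns differed among themselves by more than 3-fold, and all of them were above the added value. The model AK005305 was at 467 to 1347 against 31.3. Evi5l was at 262 to 477 against 91.9 (log2 difference -1.78, SE 0.35, adjusted p = 0.048 by limma).

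Models with kit reads lay near equality. In the 16 with kit reads in the 100 ng list the log2 difference had a median of 0.05 and 15 were within 0.15 of 0, and in the 5 of the 1000 ng list only the median was 0.09, beside -0.17 over all 58. Mgl2 was at 14286, 14368, 14155 and 13473 in the background and at 13566 in the added reads. Sirpa was at 1814, 1830, 1815 and 1748 against 1844, and Aes at 5140, 4783, 5274 and 5508 against 5499. The added values of Mgl2 and Aes lay within the range of the columns and that of Sirpa just above it. Ppp2r3a was at 62.1, 59.0, 43.9 and 44.6 against 31.7 (log2 difference -0.57, adjusted p = 0.18 by limma). With the estimated kit reads taken off both sides it was at 40.8, 34.4, 33.2 and 32.1 against 31.2 (log2 difference -0.13).

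Of the 4 models in no list, 3 had all background columns above the added reads. Sin3b was at 1846, 1342, 875 and 922 against 300.4, Parg, the enzyme that removes poly(ADP-ribose), at 1489, 878, 367 and 788 against 117, and Phospho2, a phosphatase, at 403, 594, 206 and 320 against 45.6. None passed the threshold (limma adjusted p = 0.063, 0.095 and 0.058). Tom40, the channel of mitochondrial protein import, was at 347, 376, 406 and 353 against 391, within the columns' range. Over all models, 33 of 58 (56.9%) had every background column above the added reads and 15 (25.9%) had every column below.

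By function list, 0 of the 7 immune genes passed the test, and their median log2 difference was 0.08. Among the other lists, 1 of 4 genes of NF-kB control and apoptosis (Casp9), 1 of 3 cilium genes (Evi5l) and 1 of 2 tRNA genes (Trm1l) were lower in the added reads. None of the Wnt and chromatin, PP2A, phospholipase or actin genes, nor Atg16l1 or Gas5, was called. These counts rest on the share of 15.5% over all models and on which genes the study chose for synthetic reads.

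Per bin, 131 of 886 bins tested (14.8%) differed, 130 of them lower in the added reads (14.7%) and 1 higher (0.113%), by limma at an adjusted p under 0.05. The 1 higher bin was Dnaja1 E002, 5 bases long with 3 added reads and none in any background column. It is named after its values were seen and rests on 3 reads. Without replicate 1 the count was 2, without replicate 2 it was 83, without replicate 4 it was 0 (216 at an unadjusted p under 0.05), and with a pseudocount of 100 it was 1.

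In the 28 models within 0.15 of equal totals, 448 of 471 bins (95.1%) were within 1.5-fold of the background mean, and Pearson's r of the log2 values over those bins was 0.99. These models were chosen by the closeness of their totals in the same columns, so closeness of their bins is partly built in. The r also reflects the wide range of levels between models. Bins of 1 model share transcripts and lengths, so this is a description. Of the models named below for different bin use, Mgl2, Fxyd5, Rcbtb2 and Hdh are among these 28. In 11 of these models with at least 8 coding bins, coverage of the 3′ coding bins over that of the 5′ coding bins ranged from 0.733 in Mgl2 to 1.84 in Hdh, the huntingtin gene, with a median of 1.13. For 9 of the 11 the ratio lay within the range of the 4 background columns.

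The 1000 ng background, a separate set of 5 columns, was set beside the added reads for 22 models. They are the models with kit reads in a list, and Tom40. The other models in no list, Sin3b, Parg and Phospho2, were left out. In those, every 100 ng background column was above the added reads, so the closeness below is that of a selected set. The 1000 ng columns hold NuGENv2 kit reads of the models with kit reads in the 1000 ng list. Kit reads were taken off neither side here. Each 1000 ng column was scaled by its median ratio to the added reads over the bins of the 22 models. Values near equality are therefore partly built in. Over 321 bins, 308 (96.0%) were within 1.5-fold after this scaling. Most models were close: Nono was at 1532 in the added reads and at 1538 ± 33.4 (SD, n = 5) in the 1000 ng background, and Aes at 5499 against 5394 ± 68.6. Myadm, named for kit reads in both lists, was the farthest apart, at 1739 against 2733 ± 306 (log2 difference -0.65). The lowest of the 5 columns was at 2260. Lists and estimated kit reads did not always match. On the 100 ng background the estimate was 0 for Myadm, and 935.5 TruSeq kit reads for Cyth4, which is in the 1000 ng list only. Sirpa, with kit reads in the 100 ng list only, was at 1844 against 1641 ± 31.0, above the highest column, which was at 1678. The part of kit reads in these differences was not tested. No test was made of these values.

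Use of bins within a model differed in 12 of 58 models (20.7%) by limma's diffSplice with the Simes method, at an adjusted p under 0.05. Of these, 10 are named here: Mgl2, Fxyd5, Bbs9, Tmem62, Rcbtb2, Dvl3, Dnaja1, Evi5l, Hdh and Sin3b. With the estimated kit reads taken off both sides, a setting chosen after seeing the data, 10 were called, without Fxyd5 and Sin3b. With a pseudocount of 1 the count was 21, with one of 100 it was 7, and with scaling by total reads 19.

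In Tmem62 the use of 3 bins differed, E002, E009 and E010 (plot of exon bin profiles). The level of the other 12 of its 15 bins was over 2-fold higher in the background, with a median of 151-fold over all bins. E009 was at 52.6, 98.8, 98.5 and 53.6 in columns 1 to 4 and at 91.7 in the added reads, and E010 at 76.8, 67.5, 88.0 and 52.3 against 85.7. The neighbouring E008 was at 25727, 23999, 7159 and 11152 against 106. The use of E009 differed by 6.45 on the log2 scale between added reads and background, relative to the other bins. In the added reads E008, E009 and E010 had 88, 97 and 93 reads, so the exons missing from the background excess were covered like their neighbours.

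**Figure D4:**
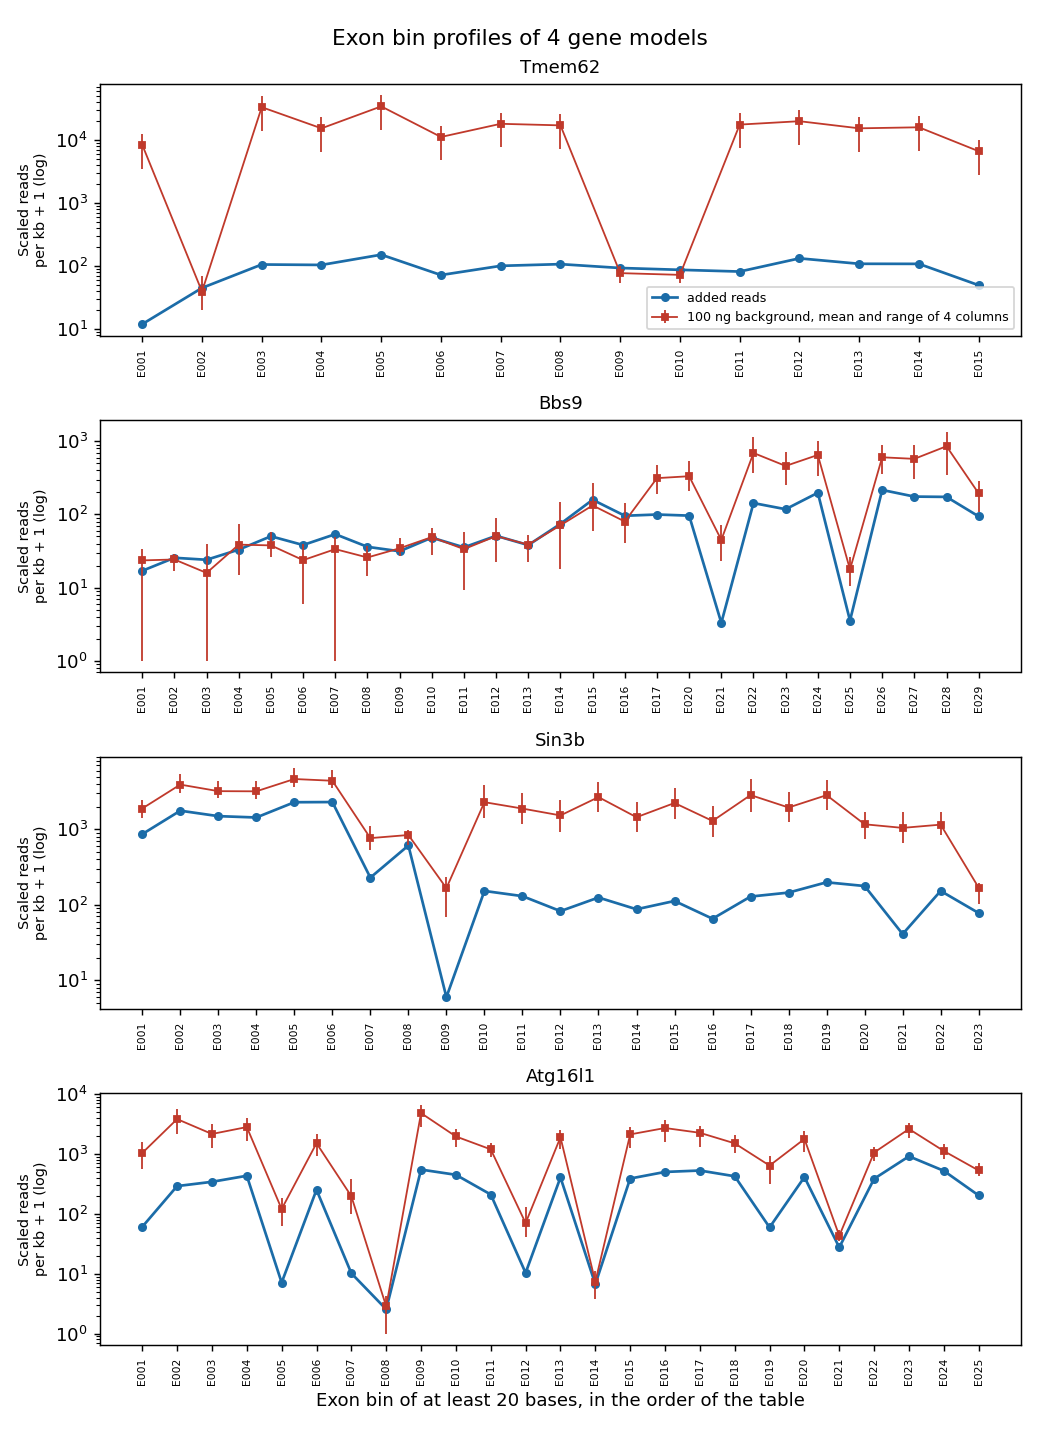
Scaled reads per kilobase plus 1 (log axis) for the exon bins of at least 20 bases of Tmem62, Bbs9, Sin3b and Atg16l1, in the added reads and in the 100 ng background (mean with the range of 4 columns). In Tmem62 the background meets the added reads at E002, E009 and E010, in Bbs9 it lies near them up to E016, in Sin3b the added reads drop before E010, and in Atg16l1 both fall at E012.

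Bbs9 divided along its length. In 15 bins, E002 to E016, the background mean was under 1.25 times the added reads, while from E017 on it was higher in every bin. E016 was at 39.9, 60.1, 74.8 and 140.8 against 94.8 in the added reads, and E028 at 1193, 344, 529 and 1356 against 173. The 2 bins with the largest usage difference, E018 and E019, had 1 and 0 added reads, with log2 differences of -5.62 and -4.38. With so few added reads, these sizes depend on the pseudocount. Of the added reads, 38 were on E006 and 267 on E026, counts that are not divided by bin length.

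Evi5l and Dvl3 differed in bins outside the main exons. Evi5l E012 was at 35.7, 40.3, 62.8 and 34.8 in the background and at 56.9 in the added reads, a usage difference of 2.20. Its E013 was at 240, 146, 105 and 152 against 5.77, a difference of -1.84. The added value of E013 was below the pseudocount of 10, so the size of -1.84 depends on that setting. In Dvl3 the bins E009, a retained intron, and E011 were lower in the added reads, with usage differences of -2.23 and -1.62. E009 was at 379, 383, 144 and 246 against 17.9.

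In Rcbtb2, Dnaja1 and Fxyd5 only 1 bin each passed over all bins. Rcbtb2 encodes a protein with RCC1 repeats and a BTB domain. Its E012, a retained intron, was at 30.4, 105.9, 19.8 and 107 in the background and at 1.00 in the added reads (usage difference -2.43), and E006, also a retained intron, had a difference of -1.26 (limma adjusted p over bins = 0.11). In Dnaja1 the bins were E002 (4.06) and E010 (-2.02, limma adjusted p over bins = 0.19). In Fxyd5 they were E001 (-1.32), a bin of 7 bases, and E005 (0.28, limma adjusted p over bins = 0.30). In Mgl2 they were E013 (-12.14) and E003 (1.14), of 6 and 3 bases. Mgl2 E013 was the bin that lost 79 reads between the samples. A loss was counted as no added reads in the fits, so the size of -12.14 depends on the pseudocount. The size of -2.43 in Rcbtb2 E012 does too, since its added value was below the pseudocount of 10. After the kit reads were taken off, the added value of E013 was 87 reads. With the kit reads taken off both sides its usage difference was -1.21, and it was the only Mgl2 bin that passed.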

How the data were processed

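Poly(A) RNA of the D1 line was sequenced, and 12 computer-mixed samples were deposited in 6 tables. The submitters' processing notes name STAR, Cuffdiff and mm9, with no version and no word on counting over bins. Each deposited value is a coverage signal, found from the values to be whole reads divided by bin width minus 1. Widths of 707 of 854 bins (82.8%) of at least 20 bases matched GENCODE vM1 exon parts in order. Column 5 of the 100 ng background was further divided by an inferred library total. Of 1744 rows, 818 repeats and 1 non-finite bin were dropped.

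Recovered reads of columns 1 to 4 were subtracted between tables. Tests used limma 3.58.1 (R 4.3.3) on log2(scaled reads per kilobase + 10), two-sided. Benjamini-Hochberg adjustment at 0.05 was over bins with a mean of at least 10 or over all models. Only the fit per bin was tried on simulated counts. Those were drawn with less spread between columns than the called models showed, so that trial does not cover them. Same-numbered columns of the 2 samples share their background reads, since every column gained the same reads. An exact permutation of 1 against 4 columns cannot go below p = 0.2 and was not used. Alternatives varied the pseudocount, scaling, filter, columns and kit reads. Named were the 12 highest and 6 lowest models, those past the thresholds (up to 10 each way on totals, 8 on bin use with 2 bins each), models of no list, and the function lists. Atg16l1 E010 to E013, Dnaja1 E008 to E012, the Sin3b bins, Ppp2r3a, the models set beside the 1000 ng background, and the median-based classes were picked after their values were seen. Members and lists were chosen with earlier results of these data known. Of the 58 models, 3 entered the fits but are not reported by name here.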

Additional observations from a re-analysis of the deposited data

Results flagged for a closer look

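In 6 of 58 gene models, 1 of the 4 scaled background columns lay far from the other 3 relative to their range, where chance flags about 1 in 20. In kif18a, replicate 2 was at 4449 scaled reads per kilobase and the others at 916 to 1066. In 2810002N01Rik, replicate 2 was at 16531 and the others at 4753 to 5670. Tmco6 and Rnf130 were high in replicate 1, at 716 (others 209 to 276) and 1983 (others 702 to 889). Pla2g16 was low in replicate 2, at 68.8 (others 80.5 to 82.3), and Hdh in replicate 4, at 194 (others 206 to 208). All 6 have synthetic reads in a list, as do 33 of the 58 models. The added reads were at 27.9 in kif18a, 91.8 in 2810002N01Rik, 41.4 in Tmco6 and 310.7 in Rnf130, below all 4 columns in each.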

How the results depend on the processing

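The count of bins gaining reads was 916 with replicate column 5 and with each of columns 1 to 4 left out in turn. For the contrast that chose the reads, which the choice decides and which supports nothing here, a replicate block gave 846 bins against 764 without it, scaling both samples over all bins gave 463 (170 higher, 293 lower), and leaving out a replicate gave 734 to 750. For added reads against background, a pseudocount of 100 gave 1 bin, 4 models and 7 models on bin use, and a pseudocount of 1 gave 21 on bin use. Scaling over models in no list gave 567 bins (478 higher, 89 lower) and 40 models, turning Evi5l to 0.41 and Sin3b to 0.32. Scaling by total reads gave 44 models and 19 on bin use, and column 5 gave 14 models. Leaving out a replicate gave 0 to 110 bins, 0 to 9 models and 10 to 15 models on bin use. The cause of these changes was not tested. No replicate block was possible there, since the added reads are 1 column. The planned edgeR fit was not run, as the deposited unit is a signal; voom, added after seeing the data, gave 168 bins, 10 models and 18 on bin use. All 9 called models stayed called under 8 of the other settings. Depth limits the low bins: 173 of 925 had under 50 added reads.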

Other observations

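Among models with a background over 2-fold above the added reads, the excess was uneven in several more. In Casp9 the ratio of mean background to added reads was 148.8 at E001, 125.7 at E004 and 6.42 at E010. In 2810002N01Rik, E007 had 3 added reads while E005 had 427, and in the background E007 was at 1018, 56949, 21708 and 9251 scaled reads per kilobase in columns 1 to 4. In Atg16l1 the ratio was 13.2 at E002 and 2.14 at E024. These bins were picked after their values were seen, and no test of a trend along the model was made.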
